A study of Zea mays subsp. mays with 2 samples.

Results

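Isolated pairs of Opaque11 (O11) binding sites with summits at most 2 kb apart are described here in the maize endosperm. Summits of the deposited O11 peak list on chromosomes 1 to 10 were sorted by position, and neighbours at most 10 kb apart were linked into runs. A close pair is a run of exactly 2 summits that lie at most 2 kb apart. The rule gave 433 close pairs, which hold 866 of the 8967 peaks on the chromosomes (9.66%, Wilson 95% interval 9.06 to 10.3%) and of 9080 peaks in all. The same runs of 2 summits gave 554 spaced pairs, with summits between 2 and 10 kb apart, so that 43.9% of the 987 isolated pairs were close.

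The study precipitated chromatin with a rabbit antibody raised against full-length O11. One group was wild type and the other was homozygous for the o11 mutation (o11/o11), which leaves no O11 protein according to the design text, and both were sampled 15 days after pollination. The protocol names endosperm and the tissue label says kernel. Each genotype had 1 library, and the labels do not say how many kernels went into it, so none of the values carries a replicate error and no test between genotypes was possible. The inbred background, the mutant allele beyond its name and the genome build are not given in the sources used here, and positions are printed as the files give them.

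O11 belongs to the basic helix-loop-helix family of transcription factors and acts in the endosperm, the storage tissue that fills the maize kernel with starch and protein. Proteins of this family bind DNA as dimers, at short motifs called E-boxes. Known O11 targets include genes for other endosperm regulators, and loss of O11 gives small, opaque kernels. A regulatory region can hold several binding sites of a factor, and chromatin immunoprecipitation shows these as separate peaks only where read coverage drops between them. The genes and the DNA sequence at the pairs were not analysed here, because no genome of a matching build was at hand.

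Each peak carries a pileup, the number of reads covering its summit, and a fold enrichment, which is the pileup plus 1 over a background plus 1. Since the mutant served as the negative control, the fold is read here as wild type over mutant. Solving the fold for the background gave a lower limit of 1.06 reads, at which 35.1% of the chromosomal peaks lay. These peaks share the same background within 0.001 reads, so among them the fold follows from the pileup alone. Peaks were between 251 bp, the shortest in the list, and a few kb long. Pileups in the list ran from 7 to 453 reads. Intervals on pileups are exact Poisson intervals at the 95% level, and intervals on shares are Wilson intervals. Intervals on medians come from the binomial distribution of ranks. All of them cover counting error only, since PCR reads without molecular identifiers are not independent molecules, and pairs are not replicates. Because the members were chosen from positions in this same peak list, everything below is a description without a test.

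Most close pairs had summits between about 0.5 and 1.5 kb apart. The median distance was 1044 bp (interval 987 to 1101), with quartiles of 721 and 1403 bp and a smallest distance of 279 bp. Distances of 500 bp or less were found in 24 pairs (5.54%), of 500 to 1000 bp in 176 (40.6%), of 1000 to 1500 bp in 149 (34.4%) and of 1500 to 2000 bp in 84 (19.4%). In classes of 250 bp the fullest was 500 to 750 bp, with 96 pairs. The next classes held 80, 80 and 69 pairs, and those from 1500 bp to the limit held 40 and 44. Pairs became scarcer without a break at 2 kb: the first class beyond it held 46, and the 8 classes from 8 to 10 kb held between 7 and 17.

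**Figure D1:**
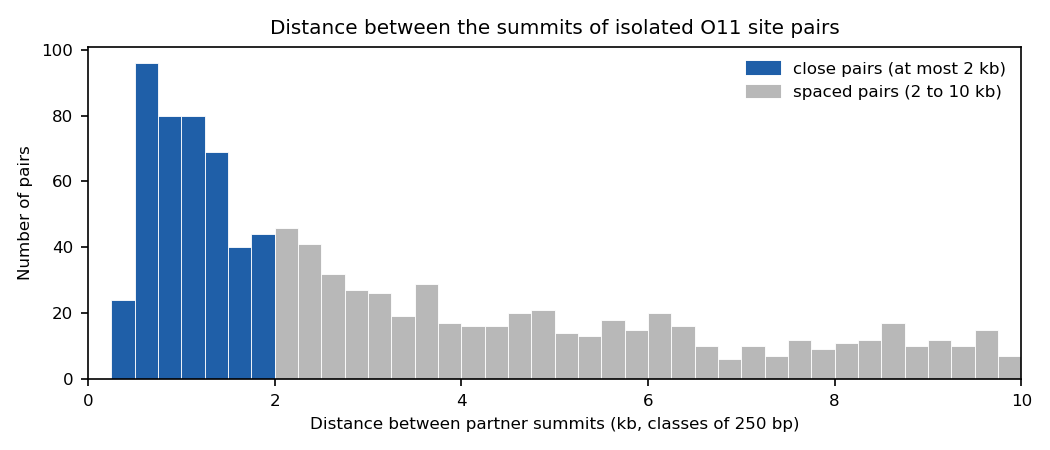
Number of isolated O11 site pairs (y axis) by the distance between their summits in kb (x axis), in classes of 250 bp, with close pairs in blue and spaced pairs in grey. The fullest class, 500 to 750 bp, holds 96 pairs, and numbers decline across the 2 kb limit.

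As separate entries of the list, partners were by construction divided by a stretch that the peak caller did not include in a peak. The facing edges of partner peaks lay a median of 569 bp apart (interval 511 to 640), with quartiles of 324 and 982 bp. In 367 pairs (84.8%, 81.1 to 87.8%) this stretch was longer than the shortest peak of the list. The smallest distance between facing edges was 103 bp in the close pairs and 103 bp over all chromosomal peaks. Library fragments were selected at about 500 bp with adaptors, per the protocol, and pairs of sites closer than the list can separate would stand in it as 1 peak. From the outer edge of one partner to that of the other, a pair spanned a median of 1454 bp, from 640 to 3421 bp, of which the peaks themselves covered a median of 58.9%.

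The 5 tightest pairs had pileups of 9 to 12 reads, but the 24 pairs at 500 bp or less were not clearly lower in pileup than the others. The pair with the smallest distance lay on chromosome 9, with summits at 136488978 and 136489257, pileups of 9 and 12 reads and folds of 4.86 and 6.18. The next, on chromosome 8 at 137679033 and 137679391, had a pileup of 9 reads at both summits. On chromosome 3 the summits at 179776151 and 179776537, 386 bp apart, both had 10 reads and a fold of 5.35. Pileups were also near equal in the next pairs by distance. A chromosome 1 pair at 265219070 and 265219457 had 10 reads at both summits, with backgrounds of 1.06 and 1.76 reads and therefore folds of 5.35 and 3.99. A chromosome 8 pair at 163226566 and 163226961 had 10 and 9 reads. Over all 24 pairs at 500 bp or less the median pileup was 14.5 reads (12 to 16) and the median fold 5.35 (4.86 to 6.03). The median pileup was 15 reads (14 to 16) at 500 to 1000 bp, 16 (15 to 17) at 1000 to 1500 bp and 17 (15 to 19) at 1500 to 2000 bp. The median fold in the same order was 6.12 (5.83 to 6.32), 6.20 (5.87 to 6.32) and 5.89 (5.83 to 6.53).

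Pairs on both sides of the 2 kb limit had pileups of a like size. The pairs just inside it had pileups of 29 and 19 reads at 2000 bp (chromosome 1, summits 44329249 and 44331249), 19 and 23 reads at 1995 bp (chromosome 3, summits 198284293 and 198286288) and 23 and 11 reads at 1991 bp (chromosome 2, summits 197864957 and 197866948). Just outside it, a chromosome 3 pair at 2004 bp had 16 and 17 reads (summits 179163851 and 179165855). Those at 2007 bp and 2008 bp, both on chromosome 8, had 34 and 23 reads (summits 119464272 and 119466279) and 16 and 27 reads (summits 136650983 and 136652991).

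As single peaks, the members were of ordinary size for the list. Their median pileup was 16 reads (interval 15 to 16), beside 15 (14 to 16) in spaced pairs and 17 (16 to 17) for summits that stood alone. Median folds were 6.05 (5.83 to 6.28) in close pairs, 5.83 (5.83 to 6.05) in spaced pairs and 5.83 (5.83 to 5.96) for lone summits. Median lengths were 361.5 bp (347 to 379), 353 bp (342 to 371) and 347 bp (343 to 351). The share of peaks with a background at the limit was 35.6% (32.4 to 38.8%), 37.5% (34.7 to 40.4%) and 29.4% (28.1 to 30.6%). For this share the intervals of close pairs and lone summits do not meet. The median background was 1.54 reads in close pairs (1.32 to 1.68) and 1.76 for lone summits, again apart. For these measures the intervals of close and spaced pairs overlap or touch.

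Among the members, 91 had a fold of at least 10 (10.5%, 8.64 to 12.7%), where 11.7% of all chromosomal peaks reached it. At a fold of 5 or more the number was 655 (75.6%), where 74.1% of all chromosomal peaks were counted, and at 20 reads or more it was 282 (32.6%, 29.5 to 35.8%), where 34.7% were. Lone summits had 37.7% at 20 reads or more (36.4 to 39.0%), an interval apart from that of close pairs. It was also apart from that of spaced pairs, which had 32.7% (30.0 to 35.5%), much as close pairs did. Only 4 members, or 0.462%, had a fold of 20 or more, where 0.569% of all chromosomal peaks did. The highest pileup in a close pair was 94 reads. In 88 pairs at least 1 partner had a fold of 10 or more, and in 3 pairs both did. Single peaks at that fold were themselves few, 10.5% of members and 11.7% of all chromosomal peaks. Any link between partners in reaching it was not tested.

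Within a pair, one partner was usually somewhat higher than the other. The median of the higher pileup was 19 reads and that of the lower 13, and the median ratio within a pair was 1.33. In 282 pairs (65.1%, 60.5 to 69.5%) the pileups were within 1.5-fold of each other, and 32 of these pairs had equal pileups. A ratio of at least 2 was found in 70 pairs (16.2%) and of at least 3 in 9 (2.08%). In 29 pairs (6.70%, 4.70 to 9.45%) the Poisson intervals of the partners did not overlap, so for the other pairs the difference was not detectable at this depth by that measure. Spaced pairs had 67.1% within 1.5-fold (63.1 to 70.9%) and 7.40% with intervals apart (5.50 to 9.89%), and both ranges overlap those of close pairs. The higher partner lay at the lower coordinate in 196 pairs and at the higher coordinate in 205.

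Peak lengths also differed within pairs. The longer partner had a median length of 454 bp and the shorter 302 bp, with a median ratio of 1.41 and a largest of 4.42. Lengths were within 1.5-fold in 259 pairs (59.8%, 55.1 to 64.3%), beside 57.4% of spaced pairs (53.2 to 61.5%). By distance, the share was 75.0% (55.1 to 88.0%) at 500 bp or less, 67.6% (60.4 to 74.1%) at 500 to 1000 bp, 52.3% (44.4 to 60.2%) at 1000 to 1500 bp and 52.4% (41.8 to 62.7%) at 1500 to 2000 bp. By construction, summits nearer to each other leave less room for long peaks. The median member was 308.5 bp long (290 to 359) in the nearest class, 346 bp (329 to 372) in the next, 393.5 bp (364 to 416) at 1000 to 1500 bp and 364.5 bp (340 to 410) in the farthest. Where partners differed in both measures, the one with the higher pileup was also the longer in 260 of 396 pairs (65.7%, 60.8 to 70.2%). Spaced pairs were much the same, with 345 of 507 (68.0%, 63.9 to 72.0%). The summit of a member lay at the middle of its peak on average: 432 of 862 summits (50.1%, 46.8 to 53.4%) that were off the exact middle leaned away from the partner.

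**Figure D2:**
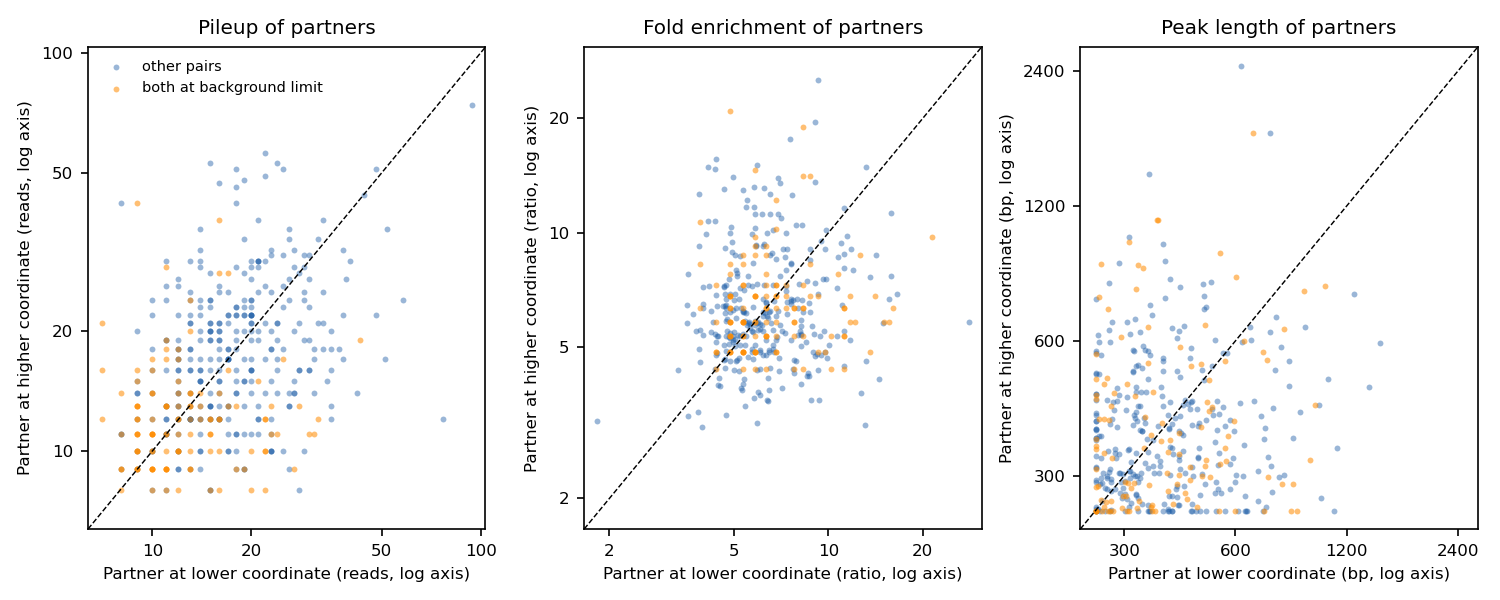
Pileup in reads, fold enrichment and peak length in bp of the partner at the higher coordinate (y axes) against the partner at the lower coordinate (x axes) for the 433 close pairs, on log axes, with a dashed line of equal values and the 119 pairs with both backgrounds at the lower limit in orange. Pileups lean along the line, with a Spearman correlation of 0.38, and folds and lengths do not, at 0.08 each.

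By rank correlation, partners resembled each other in pileup and background but hardly in fold or length. By ratio, folds lay as near to each other as pileups did. The median ratio was 1.33 for both, and folds were within 1.5-fold in 65.4% of pairs (60.8 to 69.7%), beside 65.1% for pileups. With each pair entered in both orders, the Spearman correlation between partners was 0.38 for pileup (Pearson's r of log2 values 0.37), 0.69 for background, 0.08 for fold (r 0.09) and 0.08 for length (r 0.11). These values are descriptions over 433 pairs whose partners share the same 2 libraries and the same stretch of chromosome. The part of the background in the likeness of pileups was not tested. In the 119 pairs with both backgrounds at the lower limit, the Spearman correlation for pileup was 0.06. In the 244 pairs with neither partner at the limit it was 0.25. Spaced pairs gave 0.04 over 140 pairs and 0.26 over 278 pairs in the same order.

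Both partners were alike in whether their background was at the limit in 83.8% of close pairs (80.1 to 87.0%) and in 75.5% of spaced pairs (71.7 to 78.9%). Both were at the limit in 119 close pairs (27.5%, 23.5 to 31.9%), neither in 244 (56.4%) and 1 of the partners in 70 (16.2%). Partners that are both at the limit have the same background by definition. Above the limit, the background is drawn from reads around a peak, so nearby peaks can share control reads. Of the pairs with neither peak at the limit, 14 of 244 had the same background at both peaks within 0.001 reads.

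The likeness in pileup changed little from 500 bp to 50 kb. The Spearman correlation was 0.66 over the 24 pairs at 500 bp or less, 0.34 at 500 to 1000 bp, 0.30 at 1000 to 1500 bp and 0.45 at 1500 to 2000 bp. It was 0.45 at 2 to 5 kb and 0.38 at 5 to 10 kb in spaced pairs. Neighbouring summits that each stood alone gave 0.35 at 10 to 20 kb over 264 pairs, 0.35 at 20 to 50 kb over 608, 0.26 at 50 to 100 kb over 631 and 0.13 at 100 to 500 kb over 1861. For background, it went from 0.81 in the nearest class to 0.23 in the farthest. For fold it lay between -0.04 and 0.11 in all 10 classes, and for length between -0.10 and 0.15.

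**Figure D3:**
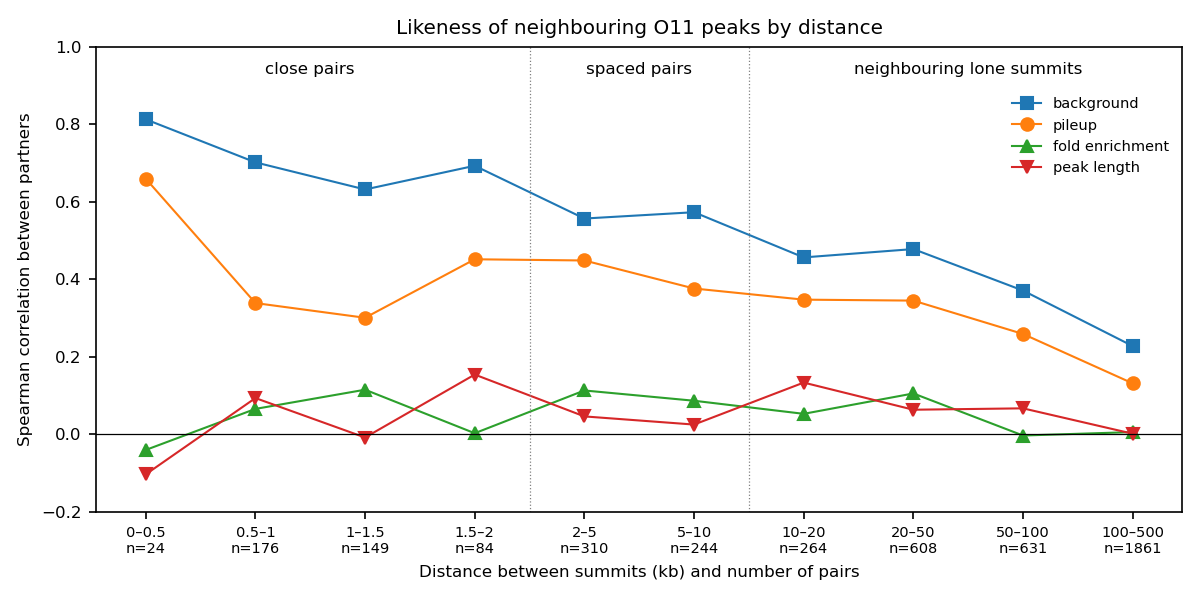
Spearman correlation between neighbouring peaks (y axis) for background, pileup, fold enrichment and peak length, in 10 classes of distance between summits in kb (x axis, with the number of pairs), from close pairs through spaced pairs to neighbouring lone summits. Background and pileup are highest in the nearest class, at 0.81 and 0.66, and lowest in the farthest, at 0.23 and 0.13. Between these, pileup shows no steady decline. Fold and length stay near 0 in all classes.

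The close pair with the largest fold was also the most uneven one. It lay on chromosome 2, with a strong peak from 185404318 to 185405030 and a weak one from 185405546 to 185405796. The strong summit at 185404614 had a pileup of 77 reads (60.8 to 96.2) and a fold of 28.0, and the weak one 1017 bp away had 12 reads (6.20 to 21.0) and a fold of 5.82, a pileup ratio of 6.42. Of the 10 chromosomal peaks with the largest folds in the list, this strong peak was the 1 that belonged to a close pair. That is near the share of members among all chromosomal peaks, 9.66%.

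Uneven partners were common among the 10 close pairs with the strongest single peaks. On chromosome 1 the summit at 284103611 had 51 reads (38.0 to 67.1) and a fold of 25.3, beside 25 reads (16.2 to 36.9) and a fold of 9.26 at 284101661. On chromosome 9 the summits at 60412596 and 60413460 had 43 and 19 reads and folds of 21.4 and 9.72, both over a background of 1.06 reads. On chromosome 8 the summits at 164359827 and 164360413 had 9 and 42 reads and folds of 4.86 and 20.9, again both over 1.06 reads. In these 3 pairs the Poisson intervals of the partners do not overlap.

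A chromosome 5 pair held the longest member peak. Its summits at 76462851 and 76463603 had 24 and 53 reads, folds of 9.04 and 19.6 and lengths of 623 and 2470 bp. On chromosome 10 the summits at 137227904 and 137229476 had 16 and 38 reads (folds 8.27 and 19.0). The pair at 277298521 and 277300129 on chromosome 1 shows how the background moves the fold. Its pileups of 33 and 38 reads have overlapping intervals, while backgrounds of 3.52 and 1.21 reads give folds of 7.53 and 17.6.

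The rest of the 10 had folds of 15.9 to 16.5 in the stronger partner. Summits at 220114585 and 220115091 on chromosome 4 had 33 and 18 reads, those at 285887125 and 285887950 on chromosome 1 had 32 and 12, and those at 172478476 and 172480147 on chromosome 7 had 38 and 22. The Poisson intervals of the partners were apart in 7 of the 10 pairs. A choice by the fold of the stronger partner favours uneven pairs.

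The pairs with the largest fold in their weaker partner were even by comparison, which the choice also favours. On chromosome 6 the summits at 146407179 and 146408549 had 26 reads (17.0 to 38.1) and 34 reads (23.5 to 47.5), folds of 13.1 and 14.9 and lengths of 744 and 1748 bp. On chromosome 8 the summits at 28165375 and 28167129 had 40 and 30 reads with folds of 15.8 and 11.2. On chromosome 3 the summits at 127310580 and 127311961 had 25 and 31 reads with folds of 11.2 and 11.6. These are the 3 pairs in which both folds reached 10. The other two had folds of 11.5 and 9.79 (chromosome 7, summits 157425677 and 157426950, with 29 and 25 reads) and of 9.79 and 10.2 (chromosome 2, summits 29330891 and 29331564, with 26 and 36 reads). The intervals of the partners overlap in all 5.

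**Figure D4:**
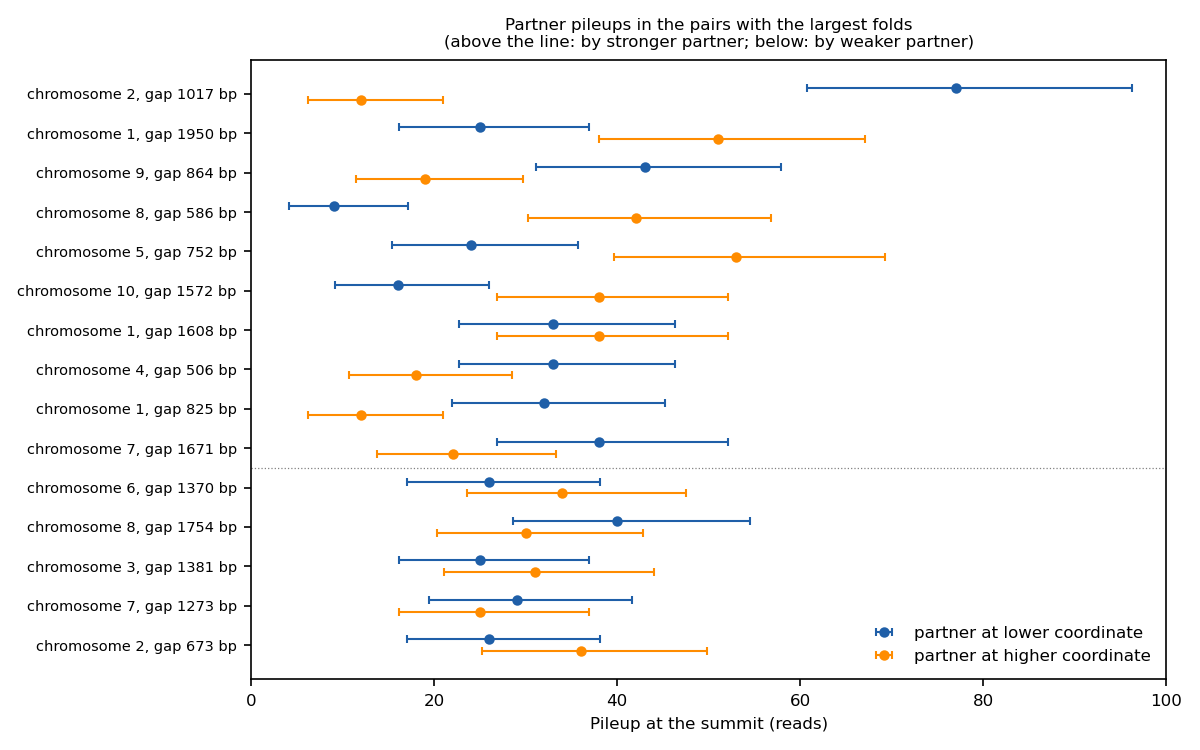
Pileup in reads (x axis) at both summits of the 10 close pairs with the largest fold in the stronger partner (above the dotted line) and the 5 with the largest fold in the weaker partner (below it), each labelled by chromosome and distance, with exact Poisson 95% intervals as bars. The bars of the partners are apart in 7 of the 10 upper pairs and overlap in the 5 lower ones.

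Further pairs were among the 5 with the largest pileup ratios. On chromosome 6 the summits at 155166693 and 155167571 had 8 and 42 reads, a ratio of 5.25. On chromosome 1 the summits at 105772643 and 105774504 had 15 and 53 reads, a ratio of 3.53, and those at 29196671 and 29197888 had 28 and 8, a ratio of 3.50. A single close pair had a background of at least 20 reads. Its peaks are 2 of the 866 members, where 34 of the 8967 chromosomal peaks had such a background. The pair lay on chromosome 10 at 34115053 and 34116778, with pileups of 94 and 74 reads and folds of 1.83 and 3.19. It was named after its values had been seen.

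Close pairs followed the peaks along the chromosomes. Each chromosome was divided into 5 equal parts up to the end of its last peak. The last part, at the higher coordinates, held 163 close pairs (37.6%, 33.2 to 42.3%), and 36.4% of all chromosomal peaks lay there. The first part held 76 pairs (17.6%), the second 50 (11.5%), the middle 58 (13.4%) and the fourth 86 (19.9%). The last part held the most close pairs on 8 of 10 chromosomes, and chromosome 2 was the 1 with under 20% of its pairs there (19.0%). Spaced pairs had 39.9% in the last part (35.9 to 44.0%) and lone summits 30.6%.

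As a share of the peaks in each part, the members had overlapping intervals in all 5 parts. Members made up 8.97% of the peaks in the first part (7.70 to 10.4%), 10.9% in the second (9.08 to 13.1%), 10.9% in the middle (9.15 to 12.9%), 8.49% in the fourth (7.35 to 9.78%) and 9.98% in the last (9.00 to 11.1%). The median distance between partners was between 991 and 1110 bp in all 5 parts. The share of members with a background at the limit differed more, from 18.0% in the second part (11.7 to 26.7%) to 44.5% in the last (39.2 to 49.9%). Its part in the number of pairs found there was not tested.

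Chromosome 8 had the most close pairs for its length, 0.361 per Mb (95% interval 0.277 to 0.462), and chromosome 4 the fewest, 0.0951 per Mb (0.0603 to 0.143). These intervals do not meet, but they treat pairs as independent. Chromosome 6 had 0.284 pairs per Mb, chromosome 2 had 0.265, chromosome 9 had 0.242, chromosome 5 had 0.207 and chromosome 1 had 0.203. Chromosome 3 had 0.185, chromosome 7 had 0.159 and chromosome 10 had 0.140, and over all of them the density was 0.211 (0.191 to 0.231). Neighbours in this order had overlapping intervals.

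Relative to all peaks, the chromosomes were closer together. Members made up 11.5% of the peaks on chromosome 8 (9.75 to 13.5%) and 7.71% on chromosome 4 (5.83 to 10.1%), with the other 8 chromosomes between 9.01 and 10.1%. Of the members, 41.3% on chromosome 8 and 21.7% on chromosome 4 had a background at the limit. The range over chromosomes was 12.2% on chromosome 5 to 53.9% on chromosome 9. For all peaks of chromosomes 8, 4, 5 and 9, members or not, the shares were 42.9%, 12.7%, 15.6% and 44.3% in that order. Chromosome 9 members had the lowest median pileup, 13 reads, and chromosome 7 members the highest, 20 reads.

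**Figure D5:**
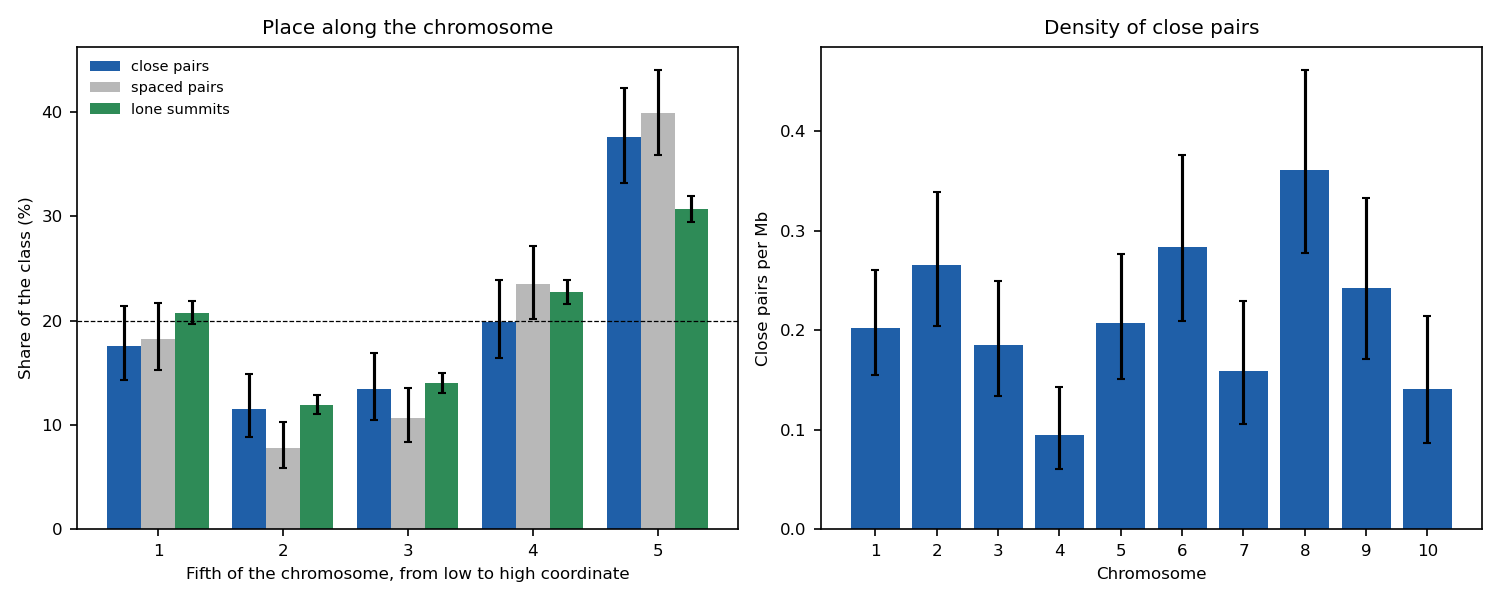
Left, share of close pairs, spaced pairs and lone summits (y axis, %) in each of 5 equal parts of the chromosomes (x axis), with Wilson 95% intervals and a dashed line at an even 20%; right, close pairs per Mb (y axis) on each chromosome (x axis) with exact Poisson 95% intervals. The last part holds 37.6% of close pairs, and chromosome 8 has the highest density at 0.361, chromosome 4 the lowest at 0.0951.

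At a local scale, close pairs were counted in windows of 5 Mb. Of 416 windows, 233 held a close pair and 47 held at least 3. The fullest was 135 to 140 Mb on chromosome 8, with 9 close pairs among 114 peaks and 61.1% of their members at the background limit. On chromosome 8 the windows at 130 to 135 Mb and at 160 to 165 Mb held 6 pairs each. So did one at 150 to 155 Mb of chromosome 9. Windows with 5 pairs differed in background. At 210 to 215 Mb on chromosome 5, with 47 peaks, the median member pileup was 20 reads and 0% of members were at the limit. The share was 50% at 280 to 285 Mb on chromosome 1 (median 23 reads) and 50% at 185 to 190 Mb on chromosome 2 (13 reads). At 155 to 160 Mb on chromosome 6 it was 70% (11 reads).

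By the median number of nearby summits, close pairs lay between lone summits and spaced pairs. From a close pair to the nearest other summit the median distance was 63.9 kb (53.5 to 75.4), and from a spaced pair it was 52.0 kb (46.4 to 58.6). These intervals overlap. The median number of other summits within 500 kb was 6 for close pairs (quartiles 3 and 11), 8 for spaced pairs (4 and 12) and 5 for lone summits (2 and 9). The intervals of the medians were 6 to 7 for close pairs and 7 to 8 for spaced pairs, which touch. Not all summits at most 2 kb apart are in such pairs. Over the chromosomes, there were 1037 couples of neighbouring summits that near to each other, and 433 of them (41.8%, 38.8 to 44.8%) were close pairs, with the others in longer runs.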

How the data were processed

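Chromatin immunoprecipitation with sequencing was done on 1 wild type and 1 o11 mutant library. The submitters' processing notes name Bowtie2 and MACS2 2.0.10, with no settings and no genome build. The authors deposited 1 peak list and its summits. Per the file headers, a peak is described by its coverage signal (the pileup), by its fold over background as a ratio, and by p-value and q-value on a −log10 scale. All 9080 summits matched their peaks. The lowest deposited −log10 q was 2.17. Read totals are not in the list, so depth is unknown.

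The background was solved from the fold, and p-values recomputed from it with the Poisson distribution were within 0.000209 of the authors' −log10 values. A background within 0.001 reads of the lowest chromosomal value was called at the limit. Python 3.11.15 with numpy 2.4.6, pandas 2.3.3 and scipy 1.17.1 was used, and run building was tested on simulated positions. The members and lists were chosen with earlier results of these data known.

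Named pairs are the 10 with the largest fold in the stronger partner, the 5 with the largest fold in the weaker partner, the 5 with the smallest distance, the 5 with the largest pileup ratio, and the 3 just inside and the 3 just outside 2 kb. Alternatives were stricter peak lists, other distances, distances between edges, high backgrounds left out, other chromosome ends and another tolerance.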

Additional observations from a re-analysis of the deposited data

How the results depend on the processing

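The count of pairs, the median distance between summits, the shares within 1.5-fold in pileup and in length, the share with both backgrounds at the limit and the share in the last of 5 parts were recomputed under 44 alternatives in all. In 30 the value stayed within its interval (for the count, within 1.5 times). Leaving out high backgrounds kept 432 of the 433 pairs, so that setting could hardly move any value. With the peaks whose −log10 q reached the median there were 160 close pairs, a median distance of 1151.5 bp, 70% within 1.5-fold in pileup and 43.8% in the last part. With peaks of at least 20 reads there were 90 pairs, a median of 1249.5 bp, 83.3% within 1.5-fold in pileup, 4.44% with both backgrounds at the limit and 28.9% in the last part. A fold of at least 5 gave 32.9% with both backgrounds at the limit. A limit of 1 kb gave, by construction, 200 pairs and a median of 700 bp, with 68.5% within 1.5-fold in length, and 2 kb between facing edges gave a median of 1144 bp. Stricter lists have fewer peaks, and the cause of the other moves was not tested. No paired analysis was possible because there was a single library per genotype. Pileups below 7 reads are not in the list, and how the number of pairs depends on depth was not tested.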

Other observations

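Outside the chromosomes, the same rule applied to the 89 mitochondrial, 4 plastid and 20 scaffold peaks gave 1 close pair, on the plastid sequence.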
